A study of Homo sapiens with 6 samples.

Results

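The NF-kB pathway, its feedback inhibitors and the chemokines, cytokines and receptors linked to it were followed as 51 genes, chosen by symbol, in 786-O cells with and without PHF8. All 51 symbols were found among the 54261 symbols of the count table, and 46 of them held enough reads to be tested. 786-O is a widely used cell line derived from a human clear cell renal carcinoma, and PHF8 is a histone demethylase that removes repressive methyl marks. The knockout group was 3 libraries of cells given PHF8-sgRNA with CRISPR-Cas9 (genotype PHF8 knockout), and the control group was 3 libraries of cells given Ctrl-sgRNA (genotype PHF8 wildtype). Both were grown in the same serum-containing medium, and the labels name no inflammatory stimulus. Whether knockout cells were pooled or 1 clone is not labelled, nor is it stated that replicates were grown separately. The p-values therefore weigh the group difference only against the variation between these libraries, and that variation may be technical.

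NF-kB is a family of dimeric transcription factors made of the Rel subunits p50, p52, RelA, RelB and c-Rel. In resting cells the dimers are held in the cytoplasm by inhibitors of the IkB family; in the canonical route the IkB kinase complex marks these for destruction, and in the non-canonical route the kinase NIK leads to processing of p100 to p52, which pairs with RelB. Active dimers switch on chemokine, cytokine and adhesion genes together with their own inhibitors, which closes a feedback loop.

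Totals per library ran from 21533615 to 29095133 counted reads, and PHF8 had 10.8, 6.74 and 12.8 CPM (read counts scaled to library size) in knockout libraries 1, 2 and 3, against 36.6, 35.1 and 32.9 CPM in control libraries 1, 2 and 3. Marker genes of this tumour line moved both ways, with PAX8 and KRT18 higher and PAX2 lower in knockout cells. PAX8 and VIM averaged 363 and 5988 CPM in knockout and 223 and 5152 CPM in control cells. PAX2 averaged 3.10 CPM in knockout and 6.57 CPM in control cells (log2 fold change -1.08; edgeR adjusted p = 7.09e-04), and CA9, a hypoxia gene typical of this tumour type, was near 0 at 0.609 CPM in knockout and 0.617 CPM in control cells. Since leukocytes also make these cytokines, their markers were read: PTPRC, CD163, LYZ, AIF1 and TYROBP, 5 of 11 macrophage and monocyte markers, had 0 reads in all 6 libraries. That list summed to 153 to 158 CPM in knockout and 72.0 to 76.5 CPM in control libraries. Most of it was CD68, a lysosomal protein gene also expressed outside leukocytes (117 CPM in knockout and 45.0 CPM in control cells). Of the list 3 were tested and 2, CD68 among them, were higher in knockout cells. The log2 fold changes of the 3 ran from 0.35 to 1.38, with a median of 0.42. With the correction for transcript length and GC content described at the end, 1 passed as higher. CSF1R averaged 10.9 CPM in knockout and 8.54 CPM in control cells and did not pass (edgeR adjusted p = 0.10). Lymphocyte markers summed to 0.042 to 0.28 CPM in knockout and 0.13 to 0.34 CPM in control libraries, endothelial markers to 2.62 to 5.22 CPM in knockout and 4.33 to 5.24 CPM in control libraries, and fibroblast markers to 1.41 to 2.33 CPM in knockout and 4.60 to 5.08 CPM in control libraries. Their part in the results was not tested.

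The sequences that NF-kB is known to bind lie close to the start of many of these genes, so the promoters were searched for the NF-kB decamer consensus on both strands. The window ran from 250 bases before to 50 bases after the start in RefSeq's promoters (GRCh38.p14), and overlapping matches on opposite strands were counted as 1 promoter. Of 41 members with a promoter in that table, 18 (43.9%) held a match, against 5.91% of all 35116 promoters of that length. RELB, NFKBIE, CCL2, LIF, TNFRSF12A and CD40, which rose, had no promoter there and were not searched. Nor were IL18, which fell, IKBKB, CSF1 and CXCL16. Among members matched to a promoter, 7 of 14 that rose in knockout cells, 3 of 7 that fell and 6 of 16 that did not pass the test held one. A match is a description of letters and not evidence of binding. Of the 6 CXC chemokine genes clustered on chromosome 4, CXCL8 held no match in this window. The consensus begins with GGG, and a near match that differs only in its first base was not counted. CXCL8 holds such a near match (tggaatttcc), as does ICAM1 (tggaaattcc). The other 5 genes of the cluster are shown because they share 1 match and the tested ones differ in response. Capitals mark the match, with 15 bases on each side.
CXCL1 (chr4:73869299-73869339, plus strand): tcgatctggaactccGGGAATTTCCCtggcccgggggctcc
CXCL2 (chr4:74099248-74099288, minus strand): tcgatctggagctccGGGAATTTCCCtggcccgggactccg
CXCL3 (chr4:74038743-74038783, minus strand): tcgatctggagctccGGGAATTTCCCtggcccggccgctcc
CXCL5 (chr4:73998743-73998783, minus strand): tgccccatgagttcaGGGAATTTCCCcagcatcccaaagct
CXCL6 (chr4:73836573-73836613, plus strand): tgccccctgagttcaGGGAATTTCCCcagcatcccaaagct
These 5 held GGGAATTTCCC, at 78 to 91 bases before the start. The next set shows matches at genes of other roles, with the 2 neighbouring matches of TNFAIP3 in 1 window.
NFKB1 (chr4:102501295-102501334, plus strand): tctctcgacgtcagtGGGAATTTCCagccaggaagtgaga
TRAF3 (chr14:102777401-102777440, plus strand): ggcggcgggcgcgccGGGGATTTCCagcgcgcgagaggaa
NFKBIA (chr14:35404806-35404845, minus strand): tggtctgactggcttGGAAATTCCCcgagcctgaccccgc
TNFAIP3 (chr6:137867177-137867216, plus strand): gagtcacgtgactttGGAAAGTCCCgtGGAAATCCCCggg
IL6 (chr7:22727112-22727151, plus strand): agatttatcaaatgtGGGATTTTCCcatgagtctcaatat
IL32 (chr16:3065289-3065329, plus strand): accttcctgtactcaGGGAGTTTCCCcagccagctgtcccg
TNFRSF9 (chr1:7940888-7940928, minus strand): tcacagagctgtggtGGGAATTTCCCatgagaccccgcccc
VCAM1 (chr1:100719665-100719704, plus strand): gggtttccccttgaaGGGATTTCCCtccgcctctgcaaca

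In the quasi-likelihood test of edgeR, 20 of the 46 tested members (43.5%) were higher and 8 (17.4%) lower in knockout than in control cells at a Benjamini-Hochberg adjusted p under 0.05; 28.9% of all 14398 tested genes were higher and 30.8% lower. With a change of over 2-fold added, 8 of the 46 members rose and 4 fell, against 1324 (9.2%) and 2038 (14.2%) of all 14398 tested genes. The libraries of the groups did not overlap for 32 of 46 members (69.6%), against 66.8% of all tested genes. The median log2 fold change of the members was 0.30, against -0.01 for all tested genes. With the correction for transcript length and GC content described at the end, these medians were 0.10 and 0.014. In this bulk RNA, fewer expressing cells and less RNA per cell cannot be told apart. Per kilobase of transcript, the highest member in both groups was TNFRSF12A, with 981 CPM per kb in knockout and 312 CPM per kb in control cells, then IL32 with 665 CPM per kb in knockout and 271 CPM per kb in control cells, then CXCL8 with 138 CPM per kb in knockout and 117 CPM per kb in control cells.

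**Figure D1:**
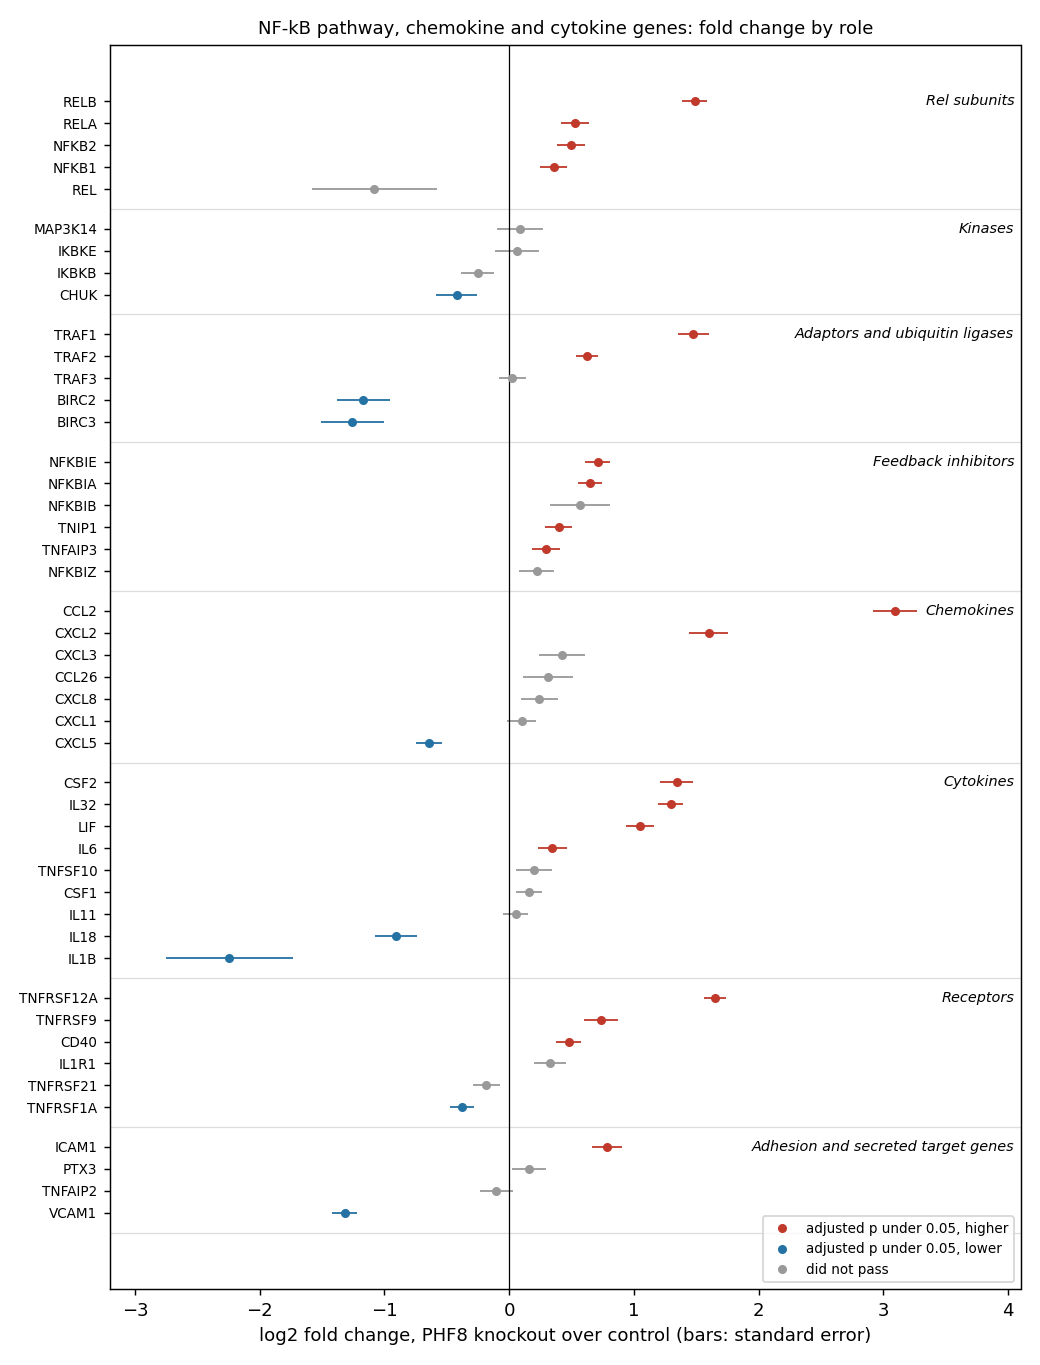
Log2 fold change of knockout over control with its standard error for the 46 tested members, grouped by role; red points were called higher, blue points lower and grey points did not pass an adjusted p of 0.05. CCL2 lies farthest right at 3.09 and IL1B, which had few reads, farthest left at -2.24, and the kinase genes lie between -0.42 and 0.086.

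Of the 5 Rel subunit genes 4 rose (80%, against 28.9% of all tested genes) and 1 did not pass. RELB (chromosome 19, 45001464 to 45038192, GRCh38), the non-canonical partner, had 77.4, 73.6 and 70.4 CPM in knockout libraries 1, 2 and 3, against 27.6, 26.6 and 24.9 CPM in control libraries 1, 2 and 3. Every knockout library lay above 2 times the highest control library. Its log2 fold change was 1.49 (SE 0.10; edgeR adjusted p = 1.17e-05). It was 0.92 (adjusted p = 1.24e-05) with an offset (a correction of each library's counts) for length and GC of the transcript. RELA, the main transactivating subunit, had 129, 115 and 147 CPM in knockout libraries and 88.4, 95.1 and 87.5 CPM in control libraries. That is a log2 fold change of 0.53 (SE 0.11; edgeR adjusted p = 0.0027). NFKB2, which encodes p100, had 127, 100.1 and 108 CPM in knockout and 84.2, 78.9 and 74.4 CPM in control libraries (log2 fold change 0.50, SE 0.11; edgeR adjusted p = 0.0044). With the offset neither RELA (0.085, adjusted p = 0.39) nor NFKB2 (0.14, adjusted p = 0.16) passed. NFKB1, which encodes p105, the precursor of p50, had 103, 83.5 and 97.8 CPM in knockout and 73.2, 77.8 and 71.4 CPM in control libraries. Its rise was small (log2 fold change 0.36, SE 0.11; edgeR adjusted p = 0.017). The call was lost when control library 3 (adjusted p = 0.057), knockout library 1 (0.063) or knockout library 3 (0.057) was left out and when only library totals were used (0.15). Over every alternative the adjusted p of NFKB1 ran from 4.93e-04 to 0.15. REL, which encodes c-Rel, had only 107, 19 and 111 reads in knockout and 91, 213 and 191 reads in control libraries. Knockout library 2 and control library 1 stood low within their groups, the groups overlapped and REL did not pass (log2 fold change -1.08, SE 0.50; edgeR adjusted p = 0.090). It passed without a filter on low counts (adjusted p = 1.20e-04) and lay at 0.087 with the offset.

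Kinase genes changed little. CHUK, which encodes IKK-alpha, had 21.7, 28.8 and 23.4 CPM in knockout and 26.4, 34.9 and 37.5 CPM in control libraries, with overlapping groups. Its log2 fold change was -0.42 (SE 0.16; edgeR adjusted p = 0.048). That call was lost with limma-voom, median-ratio factors and the stricter filter, and when control library 2 (adjusted p = 0.16), control library 3 (0.22), knockout library 1 (0.15) or knockout library 3 (0.13) was left out. Over every alternative the adjusted p of CHUK ran from 0.0091 to 0.35, and with the offset CHUK lay at 0.11. MAP3K14, which encodes NIK, had 92.1, 56.5 and 97.6 CPM in knockout and 81.9, 75.2 and 74.9 CPM in control libraries. Only knockout library 2 lay below the control libraries, and the gene did not pass (log2 fold change 0.086, SE 0.18; edgeR adjusted p = 0.71). Without knockout library 2 it passed at 0.30 (adjusted p = 0.0055). IKBKB, which encodes IKK-beta, averaged 19.7 ± 2.67 CPM in knockout and 23.4 ± 0.99 CPM in control cells (SD, n = 3 each; edgeR adjusted p = 0.12). IKBKE, an IKK-related kinase gene, averaged 21.6 ± 5.43 CPM in knockout and 20.7 ± 1.05 CPM in control cells (SD, n = 3 each; edgeR adjusted p = 0.78).

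The adaptors and ubiquitin ligases moved in opposite directions. TRAF1, an adaptor gene that NF-kB is known to induce, had 152, 112 and 143 CPM in knockout and 49.2, 49.2 and 47.7 CPM in control libraries. Every knockout library lay above 2 times the control level, with a log2 fold change of 1.48 (SE 0.13; edgeR adjusted p = 3.18e-05), or 1.45 with the offset. TRAF2, an adaptor at TNF receptors, had 112, 107 and 119 CPM in knockout and 75.0, 71.3 and 72.9 CPM in control libraries (log2 fold change 0.62, SE 0.09; edgeR adjusted p = 3.77e-04). Under the offset TRAF2 lay at 0.097 (adjusted p = 0.21). TRAF3, which targets NIK for degradation, averaged 75.4 ± 8.94 CPM in knockout and 74.0 ± 2.73 CPM in control cells (SD, n = 3 each) and did not pass (edgeR adjusted p = 0.84). BIRC2 and BIRC3 encode cIAP1 and cIAP2, ubiquitin ligases that act in TNF receptor complexes and with TRAF2 and TRAF3 on NIK. They are neighbours on chromosome 11 (BIRC3 at 102317484 to 102339403, BIRC2 at 102347214 to 102378670, GRCh38). BIRC2 had 18.9, 19.1 and 28.2 CPM in knockout and 36.2, 54.9 and 57.6 CPM in control libraries. BIRC3 had 25.4, 19.7 and 37.9 CPM in knockout and 47.7, 74.3 and 76.7 CPM in control libraries. For both genes the groups did not overlap, with knockout library 3 the highest of its group and control library 1 the lowest of its group. The log2 fold change was -1.17 (SE 0.21; edgeR adjusted p = 0.0013) for BIRC2 and -1.26 (SE 0.25; edgeR adjusted p = 0.0022) for BIRC3. Both transcripts are poor in GC, and with the offset BIRC2 lay at -0.54 (adjusted p = 0.015) and BIRC3 at -0.18, no longer past the threshold (adjusted p = 0.37).

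Feedback inhibitor genes lay on the higher side in knockout cells, 4 of 6 passing the test and none of the 6 falling. Thus 66.7% were called higher, against 28.9% of all tested genes. With the offset 2 were higher and 0 lower, and their median log2 fold change went from 0.48 to 0.16. NFKBIE, which encodes IkB-epsilon, had 50.5, 55.5 and 50.5 CPM in knockout and 33.7, 30.3 and 31.8 CPM in control libraries (log2 fold change 0.71, SE 0.10; edgeR adjusted p = 3.65e-04). NFKBIA, which encodes IkB-alpha, the classical feedback inhibitor, had 135, 150.0 and 130 CPM in knockout and 93.4, 87.3 and 84.4 CPM in control libraries. The groups were well apart, with a log2 fold change of 0.65 (SE 0.10; edgeR adjusted p = 4.56e-04). TNIP1, a partner of A20, had 319, 251 and 308 CPM in knockout and 232, 218 and 216 CPM in control libraries (log2 fold change 0.40, SE 0.11; edgeR adjusted p = 0.011). TNFAIP3, which encodes the ubiquitin-editing enzyme A20, had 26.9, 23.8 and 25.0 CPM in knockout and 21.3, 20.3 and 20.0 CPM in control libraries. Its log2 fold change was 0.30 (SE 0.11, edgeR adjusted p = 0.041). That call was lost when control library 2 (adjusted p = 0.11), control library 3 (0.11), knockout library 1 (0.13) or knockout library 3 (0.085) was left out. It was also lost with only library totals (0.34), with no filter (0.16) and with the replicate number as a block (0.080). Over every alternative the adjusted p of TNFAIP3 ran from 7.82e-04 to 0.34, and TNIP1 also lost its call with only library totals (0.088). With the offset the calls of NFKBIA (0.11, adjusted p = 0.22), NFKBIE (0.21, adjusted p = 0.064) and TNIP1 (0.028, adjusted p = 0.73) were lost, while TNFAIP3 (0.48, adjusted p = 7.82e-04) kept its call. NFKBIZ, which encodes IkB-zeta, a nuclear IkB family protein, averaged 43.8 ± 7.33 CPM in knockout and 37.6 ± 4.08 CPM in control cells (SD, n = 3 each, edgeR adjusted p = 0.21). It passed with the offset (0.45, adjusted p = 0.0088). NFKBIB, which encodes IkB-beta, was scarce at 1.63 ± 0.37 CPM in knockout and 1.10 ± 0.019 CPM in control cells (SD, n = 3 each; edgeR adjusted p = 0.070).

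Chemokine genes did not move as 1 block: 2 of 7 tested rose, 1 was lower and 4 missed the threshold. That is 28.6% higher and 14.3% lower, against 28.9% and 30.8% of all tested genes. CCL2 (chromosome 17, 34255285 to 34257203, GRCh38), which encodes the monocyte attractant MCP-1, had 13.5, 17.7 and 14.3 CPM in knockout and 1.84, 1.64 and 1.83 CPM in control libraries. The increase was 8.53-fold (log2 fold change 3.09, SE 0.17; edgeR adjusted p = 5.62e-06); it stayed at 3.06 with the offset. The CXC chemokines below attract neutrophils, and their genes lie in 1 cluster on chromosome 4, in the order CXCL8, CXCL6, CXCL1, CXCL5, CXCL3, CXCL2. CXCL2 (chromosome 4, 74097040 to 74099195, GRCh38) had 20.2, 23.5 and 16.8 CPM in knockout and 6.49, 6.61 and 6.84 CPM in control libraries. That is a 3.03-fold increase (log2 fold change 1.60, SE 0.15; edgeR adjusted p = 4.99e-05). CXCL5 had 107, 117 and 128 CPM in knockout and 167, 191 and 192 CPM in control libraries, and all 3 knockout libraries lay below the control libraries. It was the only chemokine gene of the 7 that fell (log2 fold change -0.64, SE 0.10; edgeR adjusted p = 7.18e-04). CXCL8, which encodes interleukin-8, had 202, 283 and 197 CPM in knockout and 172, 206 and 199.7 CPM in control libraries. Only knockout library 2 lay above the control libraries, and the gene did not pass (log2 fold change 0.24, SE 0.15; edgeR adjusted p = 0.19), but it passed with the offset (0.49, adjusted p = 7.44e-04). CXCL1 had 76.6, 89.9 and 101 CPM in knockout and 83.6, 79.9 and 85.9 CPM in control libraries. The groups overlapped, and its log2 fold change was 0.10 (SE 0.11; edgeR adjusted p = 0.48).

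CXCL1, CXCL2 and CXCL3 are close relatives, and the promoters of CXCL1 and CXCL2 are shown in full before the start because these genes differ in response: CXCL2 rose and CXCL1 did not pass. The 250 bases are given with the shared decamer match in capitals.
CXCL1 (chr4:73869143-73869392, plus strand): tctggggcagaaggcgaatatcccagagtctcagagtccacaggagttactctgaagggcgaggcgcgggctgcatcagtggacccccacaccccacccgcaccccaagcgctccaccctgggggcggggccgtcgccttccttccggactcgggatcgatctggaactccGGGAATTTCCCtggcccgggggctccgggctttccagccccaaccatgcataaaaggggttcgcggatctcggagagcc
CXCL2 (chr4:74099196-74099445, minus strand): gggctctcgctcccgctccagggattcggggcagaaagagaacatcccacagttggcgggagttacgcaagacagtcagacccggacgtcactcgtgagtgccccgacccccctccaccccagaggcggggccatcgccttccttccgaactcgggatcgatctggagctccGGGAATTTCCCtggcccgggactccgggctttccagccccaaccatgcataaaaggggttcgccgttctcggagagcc
In an alignment of the 300-base windows 85.1% of 269 aligned bases were identical between CXCL1 and CXCL2, 86.6% of 292 between CXCL1 and CXCL3, and 83.6% of 281 between CXCL2 and CXCL3. The transcripts were also alike, with 90.9% of 1094 aligned bases identical between CXCL1 and CXCL2, 81.7% of 1013 between CXCL1 and CXCL3 and 83.6% of 1010 between CXCL2 and CXCL3, so the split of reads between these genes is uncertain. CXCL3 had 4.29, 5.73 and 4.08 CPM in knockout and 3.73, 3.36 and 3.40 CPM in control libraries (edgeR adjusted p = 0.072), and its groups did not overlap. CCL26, an eosinophil attractant gene, averaged 3.31 ± 0.39 CPM in knockout and 2.67 ± 0.49 CPM in control cells (SD, n = 3 each; edgeR adjusted p = 0.21). Chemokine genes too scarce to test were CCL20, with 4, 15 and 13 reads in knockout and 2, 1 and 5 reads in control libraries, and CXCL16, with 9, 4 and 11 reads in knockout and 10, 2 and 15 reads in control libraries. CXCL6, whose promoter holds the same match as CXCL5, had 0 reads in all 6 libraries. A count of 0 allows up to 0.037 CPM over the knockout and 0.043 CPM over the control libraries by library totals (3 counts; counting error only).

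**Figure D2:**
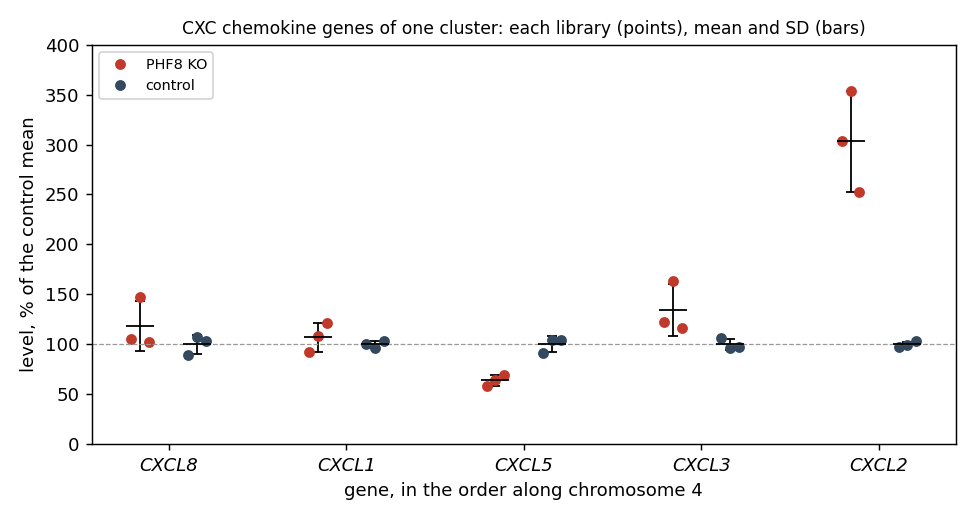
Level in each library as a percentage of the control mean for the 5 tested CXC chemokine genes of the chromosome 4 cluster, in their order along the chromosome, with mean and SD (n = 3 each) for knockout (left, red) and control (right, dark). CXCL2 lies above 250% in all 3 knockout libraries and CXCL5 below 70%, while CXCL1 and CXCL8 overlap with the control libraries.

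Among 9 tested cytokine genes, 4 were higher in knockout cells, 2 were lower and 3 missed the threshold. These shares, 44.4% higher and 22.2% lower, compare with 28.9% and 30.8% of all tested genes. IL32, which encodes a pro-inflammatory cytokine with no mouse counterpart, had 549.7, 578 and 505 CPM in knockout and 239, 221 and 205 CPM in control libraries. All knockout libraries lay above 2 times the control libraries, with a log2 fold change of 1.30 (SE 0.10; edgeR adjusted p = 1.96e-05), or 0.65 with the offset. CSF2, which encodes the growth factor GM-CSF, had 24.2, 26.0 and 20.3 CPM in knockout and 8.82, 9.41 and 9.53 CPM in control libraries (log2 fold change 1.34, SE 0.13; edgeR adjusted p = 6.05e-05). LIF, a cytokine of the interleukin-6 family, had 174, 136 and 167 CPM in knockout and 80.9, 75.1 and 74.5 CPM in control libraries. The log2 fold change of LIF was 1.05 (SE 0.11; edgeR adjusted p = 8.28e-05), and CSF2 and LIF lay at 0.83 and 0.92 with the offset. IL18, an inflammasome-processed cytokine gene, went the other way, with 6.04, 8.23 and 6.32 CPM in knockout and 12.8, 14.4 and 11.5 CPM in control libraries (log2 fold change -0.91, SE 0.17; edgeR adjusted p = 0.0014). IL1B, which encodes interleukin-1 beta, was rare, with 3, 6 and 1 reads in knockout and 15, 13 and 20 reads in control libraries. Its log2 fold change was -2.24 (SE 0.51, edgeR adjusted p = 0.0043), or -2.96 without knockout library 2. IL1B passed the filter on low counts through the control libraries alone, so its fall rests on few reads. IL6 had 59.8, 72.2 and 57.3 CPM in knockout and 48.4, 47.6 and 52.9 CPM in control libraries, close but not overlapping (log2 fold change 0.35, SE 0.12; edgeR adjusted p = 0.028). The call of IL6 was lost when control library 1 (adjusted p = 0.063) or control library 2 (0.093) was left out. It was also lost when only library totals were used (0.23) and with the replicate number as a block (0.054). Over every alternative the adjusted p of IL6 ran from 0.018 to 0.23. CSF1, the macrophage growth factor gene, had 469, 377 and 463 CPM in knockout and 415, 386 and 371 CPM in control libraries. The groups overlapped through knockout library 2 (edgeR adjusted p = 0.22), and CSF1 passed without that library (log2 fold change 0.25, adjusted p = 0.0071). TNFSF10, which encodes the death ligand TRAIL, had 106, 158 and 127 CPM in knockout and 104, 116 and 120.4 CPM in control libraries (edgeR adjusted p = 0.25). IL11 averaged 42.1 ± 2.76 CPM in knockout and 40.6 ± 1.30 CPM in control cells (SD, n = 3 each; edgeR adjusted p = 0.67), and lay at -0.38 (adjusted p = 0.0046) with the offset. IL1A had 2, 0 and 0 reads in knockout libraries and 0 reads in each control library, and was not tested.

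Receptor genes were led by TNFRSF12A (chromosome 16, 3020368 to 3022383, GRCh38), which encodes Fn14, the receptor of TWEAK. It had 926, 985 and 964 CPM in knockout and 324, 302 and 288 CPM in control libraries. The log2 fold change was 1.65 (SE 0.09; edgeR adjusted p = 4.53e-06), or 0.92 with the offset. TNFRSF9, which encodes the costimulatory receptor 4-1BB, had 62.0, 45.0 and 50.9 CPM in knockout and 33.0, 32.6 and 29.2 CPM in control libraries (log2 fold change 0.74, SE 0.13; edgeR adjusted p = 0.0013), or 1.39 with the offset. CD40, another TNF receptor family gene, had 38.7, 39.3 and 40.7 CPM in knockout and 29.9, 27.6 and 27.7 CPM in control libraries (log2 fold change 0.48, SE 0.10; edgeR adjusted p = 0.0027), or 0.021 (adjusted p = 0.82) with the offset. TNFRSF1A, which encodes the main receptor of TNF, had 165, 147 and 172 CPM in knockout and 219, 209 and 201 CPM in control libraries. It fell (log2 fold change -0.38, SE 0.09; edgeR adjusted p = 0.0073), further with the offset (-0.88). IL1R1, the interleukin-1 receptor gene, had 77.2, 57.0 and 63.2 CPM in knockout and 48.6, 54.8 and 53.7 CPM in control libraries. The groups did not overlap but the gene narrowly missed the threshold (log2 fold change 0.33, SE 0.13; edgeR adjusted p = 0.0502). It passed with DESeq2 (adjusted p = 0.037), median-ratio factors (adjusted p = 0.042), the stricter filter (adjusted p = 0.041) and the offset (0.84, adjusted p = 6.16e-05), and when knockout library 2 was left out (0.0048). Over every alternative the adjusted p of IL1R1 ran from 6.16e-05 to 0.30. TNFRSF21, which encodes death receptor 6, averaged 46.3 ± 4.43 CPM in knockout and 52.5 ± 1.20 CPM in control cells (SD, n = 3 each; edgeR adjusted p = 0.16). TNFRSF1B, the other TNF receptor gene, had 0 reads in all 6 libraries.

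The vascular adhesion molecules ICAM1 and VCAM1, both classical NF-kB targets, moved in opposite directions. ICAM1 had 269.5, 204 and 259.8 CPM in knockout and 149.6, 143 and 133 CPM in control libraries (log2 fold change 0.78, SE 0.12; edgeR adjusted p = 5.17e-04). VCAM1 (chromosome 1, 100719742 to 100739045, GRCh38) had 101, 115 and 111 CPM in knockout and 249, 284 and 282 CPM in control libraries. The groups did not overlap for either gene, and the log2 fold change of VCAM1 was -1.32 (SE 0.10; edgeR adjusted p = 1.96e-05); with the offset ICAM1 lay at 0.48 and VCAM1 at -1.01, both past the threshold. TNFAIP2, a TNF-induced gene of membrane tube formation, had 253, 178 and 231 CPM in knockout and 253, 234 and 223 CPM in control libraries (edgeR adjusted p = 0.53). PTX3, which encodes the soluble pattern receptor pentraxin 3, averaged 50.7 ± 9.03 CPM in knockout and 45.4 ± 2.00 CPM in control cells (SD, n = 3 each; edgeR adjusted p = 0.33).

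**Figure D3:**
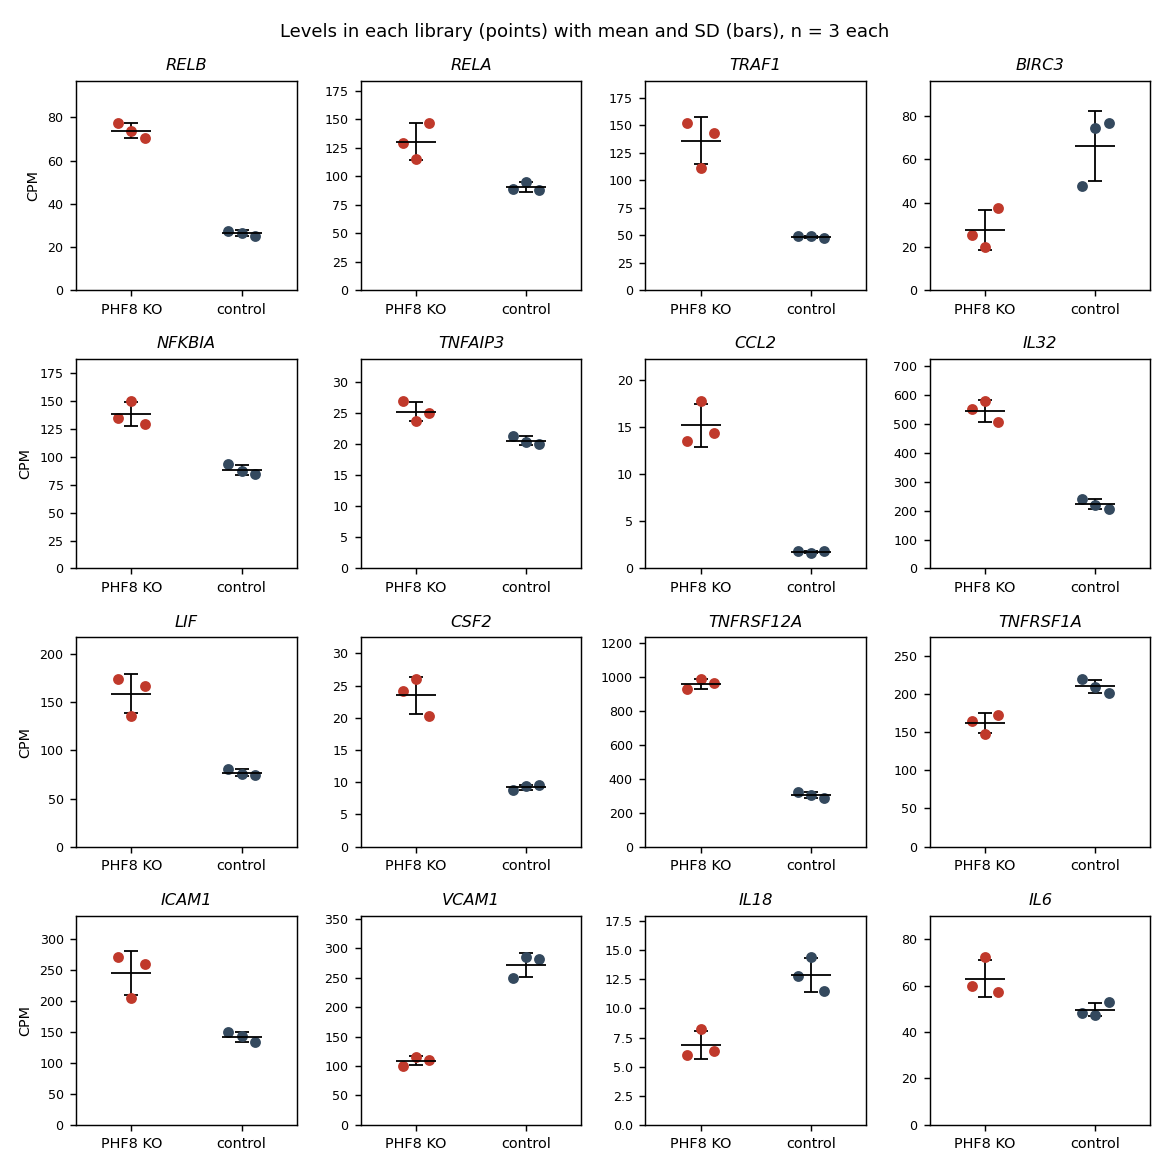
CPM in each library (points) with mean and SD (n = 3 each) for 16 members, knockout on the left in red and control on the right in dark; each panel starts at 0 and has its own scale. RELB, TRAF1, CCL2, IL32 and TNFRSF12A lie far above the control libraries, and BIRC3, VCAM1 and IL18 lie below them.

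Receptors for the secreted members were read from a list of 37 further receptor genes. The list also holds receptors of other ligands, such as TLR2, TLR4 and NGFR, so its counts do not describe only receptors of members. Of the list 24 were tested, 7 rose and 7 fell (29.2% each way, against 28.9% higher and 30.8% lower of all tested genes). The median log2 fold change of those tested was 0.14. With the offset 10 were higher and 6 lower. The receptors of interest by ligand were named after their values were seen. For LIF, whose transcript rose, the receptor gene LIFR had 8.37, 4.48 and 11.6 CPM in knockout and 31.2, 48.9 and 49.0 CPM in control libraries. That is a log2 fold change of -2.40 (SE 0.31; edgeR adjusted p = 2.13e-04), or -1.20 with the offset. The shared signalling subunit gene IL6ST averaged 41.5 ± 14.0 CPM in knockout and 101 ± 33.5 CPM in control cells (SD, n = 3 each; edgeR adjusted p = 0.0050). Under the offset IL6ST lay at -0.096 (adjusted p = 0.67). IL6R rose to 8.18 ± 1.38 CPM in knockout, against 3.62 ± 0.63 CPM in control cells (SD, n = 3 each; edgeR adjusted p = 8.09e-04). On the interleukin-1 side, the accessory receptor gene IL1RAP had a log2 fold change of -1.03 (SE 0.16; edgeR adjusted p = 6.60e-04), or -0.29 with the offset. IL18R1, a receptor gene for the ligand IL18, which fell, rose 1.56-fold (edgeR adjusted p = 0.0064). The CXC chemokine receptor genes CXCR1 and CXCR2, the CCL2 receptor gene CCR2 and the GM-CSF receptor gene CSF2RA each had 0 reads in all 6 libraries. ACKR3, which encodes an atypical chemokine receptor, TNFRSF10D, a decoy receptor gene for TRAIL, and RELT, a TNF receptor family gene, rose 2.89-fold, 3.68-fold and 1.60-fold. TNFRSF11B, another TNF receptor family gene of the list, fell, with a log2 fold change of -0.57 (SE 0.15, edgeR adjusted p = 0.0091), or -0.44 with the offset. Both death receptor genes for TRAIL did not pass, with TNFRSF10A at 9.37 CPM in knockout and 13.1 CPM in control cells (edgeR adjusted p = 0.10) and TNFRSF10B at 109 CPM in knockout and 119.5 CPM in control cells (edgeR adjusted p = 0.39). TNFRSF10A passed as lower with the offset (-0.72, adjusted p = 0.015) and with only library totals (-0.66, adjusted p = 0.032).

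Of 36 signalling genes of the pathway outside the 51, 15 were higher and 16 lower (median log2 fold change 0.17; 86.1% passing, against 59.7% of all tested genes). With the offset 13 of the 36 were higher and 9 of the 36 lower, against 30.5% and 28.1% of all tested genes. RBCK1, which encodes HOIL-1, a subunit of the linear ubiquitin ligase LUBAC, had 361, 416 and 416 CPM in knockout and 137, 125 and 129 CPM in control libraries. Its log2 fold change was 1.61 (SE 0.10; edgeR adjusted p = 7.53e-06), or 1.42 with the offset. ZC3H12A, which encodes Regnase-1, a ribonuclease that degrades cytokine messages, rose 2.15-fold, and TAB2, an adaptor gene of the kinase TAK1, fell 2.32-fold. FADD, a death receptor adaptor gene, rose 1.78-fold and TNIP2, a partner gene of A20, rose 1.67-fold; with the offset FADD lay at 0.24 (adjusted p = 0.010) and TNIP2 at 0.14 (adjusted p = 0.10). Of 50 other NF-kB target and inflammatory ligand genes 25 were tested, 14 rose and 4 fell (56% and 16%, against 28.9% and 30.8% of all tested genes; median log2 fold change 0.54). The median was 0.22 with the offset, with 12 higher and 5 lower, and 0.37 with only library totals. SOD2, which encodes the mitochondrial superoxide dismutase, had 810.2, 953 and 683 CPM in knockout and 265, 282 and 277 CPM in control libraries. SAA1, an acute phase protein gene, MMP9, a gelatinase gene, F3, the tissue factor gene, and IRF1, a transcription factor gene of the interferon response, rose 6.41-fold, 3.70-fold, 3.22-fold and 1.66-fold. TNF itself, LTB and CCL3 had 0 reads in all 6 libraries.

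Genes that rose and genes that fell differed in GC content and transcript length. Median GC content was 55.7% for the 20 members that rose and 40.2% for the 8 that fell, against 55.2% and 42.3% for all genes that rose and fell. Median transcript length differed less between members than between all genes, at 2305 nt for members that rose, 2768.5 nt for those that fell and 3417.5 nt for those that did not pass, against 2242 nt for all genes that rose and 4663 nt for all that fell. With an offset that removes smooth trends of both, 13 of the 20 rises and 6 of the 8 falls kept their call and direction. NFKB2, RELA, TRAF2, NFKBIA, NFKBIE, TNIP1 and CD40 lost their rise, and CHUK and BIRC3 their fall. Another 5 members passed as higher with the offset (TRAF3, NFKBIZ, CXCL8, TNFSF10 and IL1R1) and 3 as lower (IKBKB, IL11 and TNFRSF21). That gave 18 of 46 higher and 9 of 46 lower, against 30.5% and 28.1% of all tested genes. Because each library is corrected towards the average library, any knockout effect that tracks either property is taken out too; the part of these properties in the fold changes was not tested. With library totals only, which moved the median of all tested genes to -0.18, 16 members were higher and 10 lower.

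**Figure D4:**
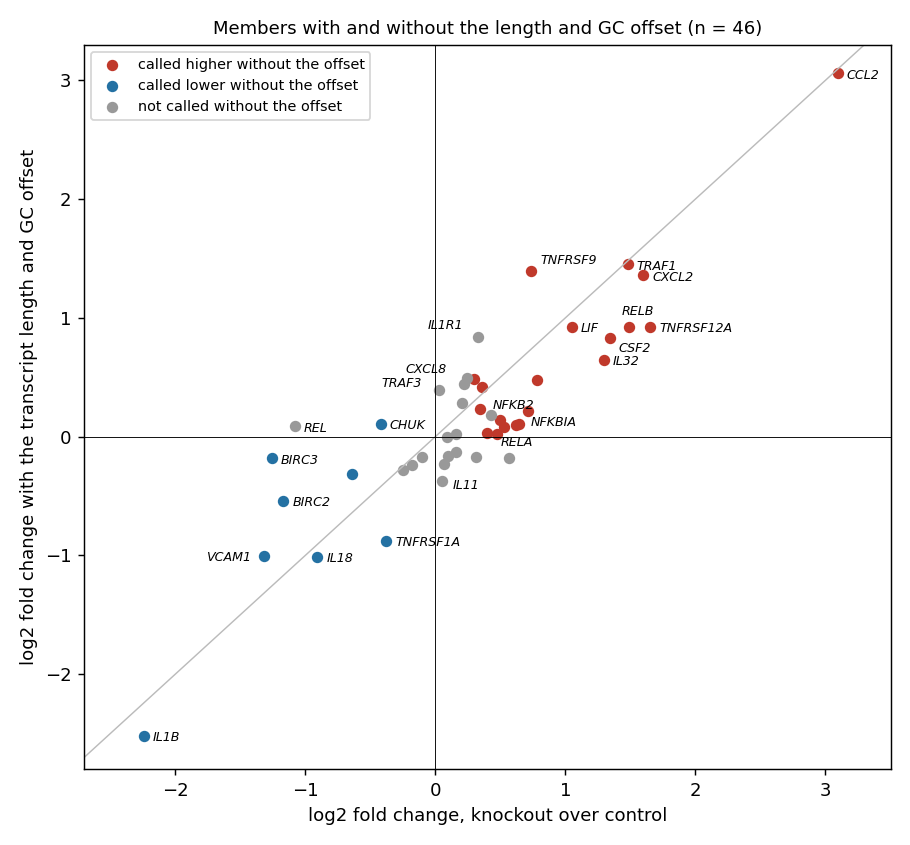
Log2 fold change of the 46 tested members without (horizontal) and with (vertical) the correction for length and GC, coloured by the call without it; the grey line marks equal values. CCL2 stays at 3.06 and VCAM1 at -1.01 with the offset, while RELA, NFKB2 and NFKBIA lie close to 0 on the vertical axis.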

How the data were processed

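RNA was sequenced from 3 knockout and 3 control libraries of 786-O cells. Per the labels' series design text, the authors filtered reads, mapped them to GRCh38 with HISAT2 (version 2.0.4, per the submitters' processing notes) and counted them per gene with HTSeq; no source states the strand setting or gene annotation, so overlapping and antisense genes are uncertain. The authors deposited unnormalized read counts, 1 row for each gene symbol.

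Counts were tested with edgeR 4.0.16 (limma 3.58.1, R 4.3.3): quasi-likelihood test of group alone, TMM factors (0.94 to 0.96 in knockout and 1.05 to 1.07 in control libraries), the filterByExpr filter (14398 genes kept), prior count 0.125 and Benjamini-Hochberg adjustment over all tested genes. CPM use the same factors. Standard errors were taken as the absolute log2 fold change over the square root of the F statistic. The test was checked on simulated data in which far fewer genes changed than were called here, so that check may not carry over. Within each group the libraries' counts differed beyond sampling noise, so none was a repeat deposit (chi-square per degree of freedom 2.95 to 68.1). Symbols were matched to RefSeq (GRCh38.p14) for coordinates and promoters and to GENCODE canonical transcripts for length and GC content (92.5% of tested genes). The members, lists and tests were chosen with earlier results of these data known. All members are accounted for. Full values are given for up to 5 called members of each role with the smallest p and 2 others of the highest level. Up to 5 called genes of each further list are named, and the receptor list has more, chosen by ligand after their values were seen. Results were recomputed with DESeq2 1.42.0, with limma-voom, with median-ratio factors or library totals for scaling, unfiltered, under a filter asking for 1 CPM throughout a group, with the replicate number as a block, with a lowess offset (span 0.3) for length and GC, with both together, and leaving out each library. Not every marker gene of the cell line is reported here.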

Additional observations from a re-analysis of the deposited data

How the results depend on the processing

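The members called were 20 higher and 8 lower; the alternatives without a library left out gave 16 to 21 higher and 6 to 10 lower, and leaving out 1 library gave 18 to 23 higher and 7 to 8 lower. For all tested genes called, the count of 8593 became 8035 to 9263 in the settings that kept every library and 7096 to 9466 with 1 library left out. With the replicate block 18 members were higher and 8 lower and 8308 genes were called; TNFAIP3 (adjusted p = 0.080) and IL6 (adjusted p = 0.054) lost their call. Whether equal numbers pair the libraries is not labelled. Same-numbered libraries deviated from their group means with correlations of 0.020, -0.044 and 0.011, which show no pairing but are too few to exclude it. With library totals only, log2 fold changes changed sign for IKBKE (-0.11), MAP3K14 (-0.085), TRAF3 (-0.14), CXCL1 (-0.069), IL11 (-0.11), CSF1 (-0.0099) and PTX3 (-0.0068). With the length and GC offset the sign changed for REL (0.087), CHUK (0.11), IKBKE (-0.23), MAP3K14 (-0.00080), NFKBIB (-0.18), CCL26 (-0.17), CXCL1 (-0.17), IL11 (-0.38) and PTX3 (-0.13). The block and offset together gave 0.11 for CHUK, -0.24 for IKBKE, -0.013 for MAP3K14, -0.19 for NFKBIB, -0.17 for CCL26, -0.18 for CXCL1, -0.38 for IL11 and -0.14 for PTX3, with 18 members higher and 9 lower. Leaving out 1 library, the sign changed for IKBKE (range -0.12 to 0.24), MAP3K14 (-0.058 to 0.30), TRAF3 (-0.056 to 0.11) and TNFAIP2 (-0.21 to 0.032). Of these genes only CHUK had passed without the alternative; the cause was not tested. Depth limited CCL20, CXCL16, IL1A and IL1B, with at most 20 reads in any library.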

Other observations

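Ratios of reads between members of 1 library do not depend on scaling between libraries. They were not corrected for transcript length and GC content, in which genes of a pair can differ, as BIRC3 (35.8% GC) and TRAF1 (55.4% GC) do. The pairs were chosen after their values were seen, so no test is given. CXCL2 had 0.263, 0.262 and 0.167 reads per read of CXCL1 in knockout libraries 1, 2 and 3, and 0.0777, 0.0827 and 0.0796 in control libraries 1, 2 and 3. VCAM1 had 0.373, 0.565 and 0.427 reads per read of ICAM1 in knockout and 1.66, 1.99 and 2.11 in control libraries. For BIRC3 against TRAF1, the ratio was 0.167, 0.176 and 0.264 in knockout and 0.968, 1.51 and 1.61 in control libraries. TNFRSF12A had 5.62, 6.69 and 5.59 reads per read of TNFRSF1A in knockout and 1.48, 1.44 and 1.43 in control libraries. For RELB against RELA, it was 0.598, 0.641 and 0.480 in knockout and 0.312, 0.279 and 0.284 in control libraries. In each of these 5 pairs the groups did not overlap, but choosing pairs with known values favours that, so it lends no support.

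Knockout library 2 was the highest or lowest knockout library for 89.1% of the 46 tested members, against 82.1% of all tested genes. It was the lowest for 22 members, among them MAP3K14, TNFAIP2, TRAF1, ICAM1 and CSF1, and the highest for 19, among them CCL2, CXCL8, IL6 and TNFSF10. Knockout library 1 was at an extreme for 65.2% and library 3 for 45.7% of the members, against 63.1% and 54.8% of all tested genes.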
